A study of Mus musculus with 8 samples.

Results

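The GIMAP genes encode GTPases of the immunity-associated protein family, and 8 of the 24421 gene symbols counted in naive CD4+ T cells belong to it: Gimap1, Gimap3, Gimap4, Gimap5, Gimap6, Gimap7, Gimap8 and Gimap9. They were taken by symbol, and all 8 passed the filter on low counts. Naive CD4+ T cells had been isolated with a kit from the spleen of C57BL/6 mice 6 to 8 weeks old, described as male, and sequenced as paired ends. A total of 4 libraries carry the title E1KO and 4 the title E1WT. The design names mice with a floxed Pcbp1 gene and a Cre recombinase driven by Cd4, against wild type. The genotype field gives Pcbp1+/+Cd4-Cre for the E1KO titles and Pcbp1fl/flCd4-Cre for the E1WT titles, which is the reverse of the titles. By that field both groups carry Cd4-Cre. Libraries are therefore called by their titles, and each fold is E1KO over E1WT. Grouping by the genotype field would turn every sign.

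GIMAP proteins share a GTP-binding domain related to that of septins and sit mostly on the membranes of intracellular organelles. They are best known from lymphocytes, where several members are needed for naive T and B cells to survive. GIMAP5 is the member whose loss leaves rats and mice short of T cells, and GIMAP1 is needed for mature lymphocytes to persist.

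The 8 genes lie side by side on chromosome 6 (GRCm38) within 123.6 kb, from Gimap8 at 48647234 to 48660875 to Gimap3 at 48764464 to 48770851. Between these ends lie, in order, Gimap9 (48676129 to 48679114), Gimap4 (48684549 to 48692060), Gimap6 (48701582 to 48708225), Gimap7 (48718621 to 48724636), Gimap1 (48739054 to 48743795) and Gimap5 (48746197 to 48754210). Gimap6 and Gimap3 are on the minus strand and the other six on the plus strand. Pcbp1, the targeted gene, lies on the same chromosome 37.75 Mb beyond the Gimap3 end.

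The 250 bases before the RefSeq start site (GRCm38.p6) are shown for the 3 members with the largest log2 folds, Gimap7, Gimap1 and Gimap4, and for Gimap3, the member whose fold was negative. Capitals mark the RUNX motifs TGTGGT and TGCGGT and the ETS motifs AGGAAG and CGGAAG on either strand. RUNX and ETS proteins are transcription factors of the T cell lineage.
Gimap7 (chr6:48718371-48718620, plus strand): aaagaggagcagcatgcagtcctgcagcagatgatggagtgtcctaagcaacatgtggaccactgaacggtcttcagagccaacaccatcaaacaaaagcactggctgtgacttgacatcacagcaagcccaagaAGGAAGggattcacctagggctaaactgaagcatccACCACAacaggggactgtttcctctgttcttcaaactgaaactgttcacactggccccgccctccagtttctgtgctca
Gimap1 (chr6:48738797-48739046, plus strand): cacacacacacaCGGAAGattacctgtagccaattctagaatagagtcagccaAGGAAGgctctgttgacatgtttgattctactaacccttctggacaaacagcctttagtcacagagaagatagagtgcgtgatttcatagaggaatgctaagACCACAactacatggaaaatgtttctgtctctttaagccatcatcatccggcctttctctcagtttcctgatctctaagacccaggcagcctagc
Gimap4 (chr6:48684328-48684577, plus strand): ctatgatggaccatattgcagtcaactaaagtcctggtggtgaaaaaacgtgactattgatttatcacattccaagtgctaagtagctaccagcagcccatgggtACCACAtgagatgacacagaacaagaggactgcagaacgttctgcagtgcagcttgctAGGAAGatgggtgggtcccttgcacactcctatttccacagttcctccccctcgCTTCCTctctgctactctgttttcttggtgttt
Gimap3 (chr6:48770852-48771101, minus strand): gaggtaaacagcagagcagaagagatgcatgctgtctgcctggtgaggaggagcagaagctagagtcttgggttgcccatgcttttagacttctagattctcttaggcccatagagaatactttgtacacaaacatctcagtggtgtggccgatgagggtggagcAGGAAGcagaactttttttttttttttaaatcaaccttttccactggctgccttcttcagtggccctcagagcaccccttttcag
The RUNX motif TGTGGT, which reads ACCACA on the other strand, was present in 3 of the 9 start-site windows of the family, those of Gimap7, Gimap1 and Gimap4, against 14.0% of 32851 mouse promoter windows of the same length. TGCGGT was found before Gimap9 (5.1% of all windows). The ETS motif AGGAAG stood in 7 of the 9 windows (29.5% of all windows), every member but Gimap6 having it in 1 window, and CGGAAG stood in 3 (13.6%), those of Gimap1, Gimap6 and 1 of the 2 Gimap8 windows. The match of TGTGGT with the order of the folds was noticed after the values were seen and is a description.

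Libraries held 28264655 to 36738202 gene counts. Pcbp1 stood at 38.3 to 41.8 CPM (counts scaled to library size, with edgeR's TMM factors) in E1KO-titled and at 203 to 243 CPM in E1WT-titled libraries, which goes with the titles. The libraries differed in sex-linked genes although all mice are described as male. Xist stood at 365 to 426 CPM in E1KO and at 0.55 to 2.89 CPM in E1WT, and the Y-linked Ddx3y at 52.0 to 57.5 against 103 to 116 CPM. Every E1KO-titled library thus held both Xist and Ddx3y, and whether these libraries pool mice of both sexes was not tested. Make-up by sex and title cannot be told apart in any comparison below. The share of reads given to no gene also separated the titles, at 28.2% to 30.8% in E1KO and 33.3% to 37.0% in E1WT. The labels do not say whether each library is a mouse of its own, and p-values below cover no more than the spread among the 8 libraries, which may be technical.

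Marker counts below stand beside 12.2% of all genes called higher in E1KO and 11.1% called lower. All 11 CD4+ T cell markers were detected (2 higher, 4 lower), and their summed level was 5975 to 6209 CPM in E1KO against 6807 to 6928 CPM in E1WT. Of the other cells that could be present, the 10 monocyte and macrophage markers summed to 71.1 to 86.0 against 30.5 to 37.8 CPM (4 of 9 tested higher, 1 lower) and the 10 erythroid markers to 169 to 208 against 62.8 to 84.6 CPM (4 of 6 higher, 4 of the 10 at 0 in all libraries). The 9 dendritic markers summed to 62.9 to 77.3 against 50.4 to 63.5 CPM (6 of 9 higher). The 8 B cell markers summed to 247 to 266 against 227 to 261 CPM (2 of 8 higher, 1 lower). The 8 NK cell markers summed to 150 to 162 against 130 to 140 CPM (4 of 8 higher). CD8 T cells, which also carry GIMAP proteins, were marked by Cd8a and Cd8b1 at a sum of 20.3 to 27.9 against 25.5 to 31.0 CPM. Cd8a was called lower, at 7.01 to 8.95 against 10.1 to 11.8 CPM. Cd8b1 was not called, at 12.5 to 18.9 against 14.2 to 19.2 CPM. The 6 plasma cell markers summed to 879 to 1087 against 619 to 820 CPM (1 of 6 higher, 0 lower). Most of that sum was Jchain, the 1 called, at 685 to 880 against 439 to 642 CPM. The 6 neutrophil markers summed to 41.4 to 45.9 against 39.0 to 41.5 CPM (1 higher, 1 lower). The 10 endothelial markers summed to 258 to 269 against 245 to 260 CPM, nearly all of it Pecam1, which T cells also express (251 to 262 against 239 to 255 CPM). Of the 7 tested, 2 were higher, Vwf at 3.08 ± 0.68 against 1.52 ± 0.50 CPM and Egfl7 at 1.86 ± 0.22 against 0.92 ± 0.33 CPM, both named after their values were seen. Cldn5 and Emcn stood at no more than 0.12 CPM in any library. The part of these cells in the results below was not tested. In bulk RNA, fewer cells of a type and less RNA per cell cannot be told apart.

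The family was abundant. Its members together took 0.285% to 0.378% of all gene counts, and their summed level was 3414 ± 207 CPM in E1KO and 3204 ± 247 CPM in E1WT (SD, n = 4 each). Single libraries lay at 3156, 3391, 3659 and 3449 CPM for E1KO 1 to 4 and at 3155, 3544, 3165 and 2953 CPM for E1WT 1 to 4. The groups overlapped. Of the 13333 genes tested, Gimap3 ranked 98th by mean CPM, Gimap4 166th, Gimap6 233rd and Gimap8 357th, so that 4 members were among the top 500. Gimap1 ranked 604th, and Gimap9, Gimap7 and Gimap5 ranked 2743rd, 2852nd and 2942nd.

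Per length, as mean CPM per kb of annotated exon in E1WT, Gimap3 stood at 416 ± 30.4, Gimap4 at 364 ± 41.2, Gimap6 at 159 ± 10.2, Gimap8 at 111 ± 5.17, Gimap1 at 90.7 ± 6.48, Gimap9 at 49.5 ± 7.72, Gimap7 at 26.9 ± 2.77 and Gimap5 at 18.1 ± 0.731 (SD, n = 4). In this order the ranges of neighbouring members overlapped over libraries for Gimap3 and Gimap4 only. In E1KO the order was the same except at the top, where Gimap4 stood at 423 ± 28.9 and Gimap3 at 388 ± 26.8 CPM per kb. Ranges overlapped there and also between Gimap8 and Gimap1 and between Gimap9 and Gimap7. That exchange depended on the length used, since per kb of the longest transcript Gimap3 was the higher in both groups, at 466 ± 32.2 and 430 ± 29.4 for Gimap3 and Gimap4 in E1KO and at 499 ± 36.5 and 371 ± 41.9 in E1WT. On that length Gimap1 also passed Gimap8 in both groups (208 against 140 CPM per kb in E1KO and 173 against 130 in E1WT), and in E1KO it stood above Gimap6 (186) and Gimap7 (78.4) above Gimap9 (63.4).

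**Figure D1:**
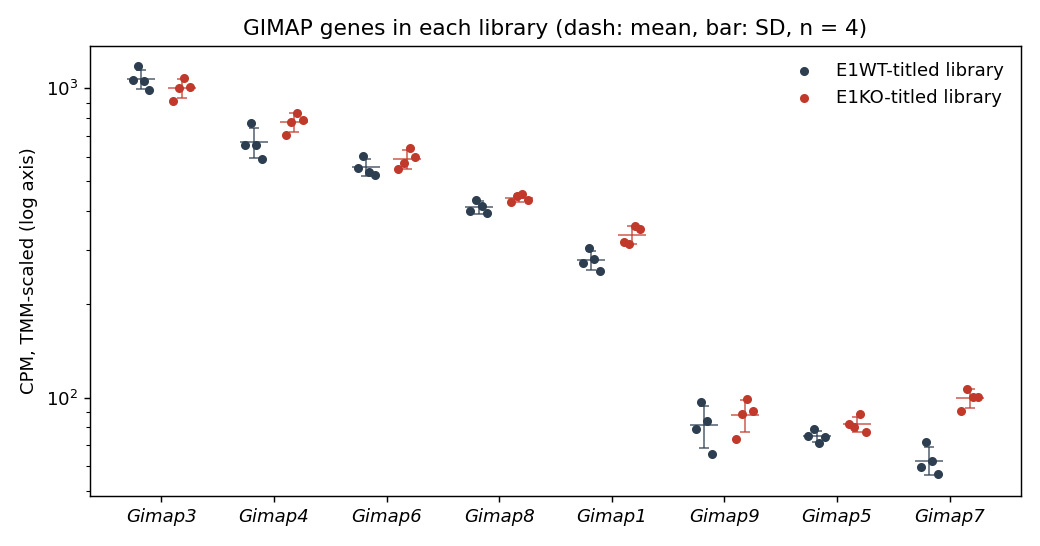
CPM (TMM-scaled, log axis) of each GIMAP gene, with 1 point per library, a dash for the mean and a bar for the SD (n = 4 per title), ordered by the E1WT mean. Gimap7 lies at 90.5 to 107 CPM in all E1KO-titled libraries and at 56.7 to 71.6 CPM in all E1WT-titled ones, whereas the points of Gimap3, Gimap4, Gimap6, Gimap8, Gimap9 and Gimap5 overlap.

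Gimap7 and Gimap1 rose in the E1KO-titled libraries, and the other six members did not pass the test. The 2 called members of 8 stand against 23.3% of all genes called in either direction and 12.2% called higher, so the family's share of calls was near that of the transcriptome. The median log2 fold of the 8 members was 0.119, against 0.0065 over all genes, and 7 of the 8 folds were positive. Their median absolute log2 fold was 0.119, against 0.181 over all genes. The latter covers genes of every level and was not matched to the abundance of the members.

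Gimap7 encodes a small member that is known in human cells to speed GTP hydrolysis by its relative GIMAP2. Its level was 90.5, 106.7, 100.5 and 100.3 CPM in E1KO 1 to 4 and 59.7, 71.6, 62.1 and 56.7 CPM in E1WT 1 to 4. Every E1KO library lay above every E1WT library, as in 26% of all genes in one direction or the other. The log2 fold was 0.67 ± 0.08 (SE), which is 1.59-fold, with an edgeR adjusted p of 0.000138. It passed under all 18 alternative settings, with log2 folds of 0.61 to 0.75. Of 2257 distinct stretches of 75 bases in Gimap7 transcripts, 7 also occur in another annotated gene, Gm28053, which was not analysed here.

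Gimap1, needed for the survival of mature T and B cells, stood at 317.6, 313.9, 357.8 and 351.3 CPM in E1KO 1 to 4 and at 273.3, 303.9, 281.3 and 255.9 CPM in E1WT 1 to 4. The groups did not overlap, although E1WT 2 lay close under E1KO 2. The log2 fold was 0.27 ± 0.07 (20.3% higher, edgeR adjusted p = 0.015). The call was lost without E1KO 4 (log2 fold 0.24 ± 0.08, edgeR adjusted p = 0.0534) and without E1WT 1 (0.26 ± 0.08, edgeR adjusted p = 0.0517), with the fold little changed. Gimap1 is overlapped on the other strand by Gimap1os, an antisense transcript not analysed here. Of the 3138 distinct stretches of 75 bases (the read length) in Gimap1 transcripts, 1041 also occur in another annotated gene, 958 of them in Gimap1os, 124 in Gm28053 and 11 in Gm10310, which can overlap in turn. The strand setting of the counting is unknown, and without it such reads cannot be told apart.

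Gimap4, a GTPase that has been linked to the timing of T cell death, had a level of 705.3, 779.4, 833.6 and 787.3 CPM in E1KO 1 to 4 and of 653.7, 773.0, 657.0 and 591.8 CPM in E1WT 1 to 4. The single overlap came from E1WT 2, which exceeded E1KO 1. The log2 fold of Gimap4 was 0.22 ± 0.08 (edgeR adjusted p = 0.0806), and the edgeR adjusted p was 0.0403 without E1KO 1 and 0.0102 without E1WT 2. With any of the other six libraries left out it was 0.153 to 0.183.

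Gimap3 is a close relative of Gimap5, and its mouse protein has been reported on the outer mitochondrial membrane. Gimap3 was the most abundant member and the one with a negative fold. It stood at 911.9, 1000.5, 1080.4 and 1009.1 CPM in E1KO 1 to 4 and at 1062.6, 1178.1, 1052.7 and 990.4 CPM in E1WT 1 to 4. The ranges overlapped, and the log2 fold was -0.10 ± 0.07 (edgeR adjusted p = 0.336). Gimap3 and Gimap5 transcripts have 83 stretches of 75 bases in common, which is 3.32% of those in Gimap3 and 1.97% of those in Gimap5. Reads from these stretches align to more than 1 place. A further 80 stretches of Gimap5 also occur in Gm28053.

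Gimap5, the lymphocyte survival factor of the lyp rat, was near the foot of the family. It stood at 77.5 to 88.5 CPM in E1KO and at 71.5 to 78.9 CPM in E1WT, and 1 E1KO library lay inside the E1WT range. Its log2 fold was 0.13 ± 0.06 (edgeR adjusted p = 0.135). With the counts of Gimap3 and Gimap5 added together, the members called were again 2.

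Gimap6, whose protein binds the autophagy factor GABARAPL2, stood at 590 ± 40.9 and 555 ± 35.7 CPM in E1KO and E1WT (log2 fold 0.09 ± 0.07, edgeR adjusted p = 0.361). Gimap8, which carries several GTPase domains in 1 protein, stood at 442 ± 12.7 and 412 ± 19.1 CPM (log2 fold 0.10 ± 0.05, edgeR adjusted p = 0.196). Gimap9 stood at 87.8 ± 10.7 and 81.3 ± 12.7 CPM (log2 fold 0.11 ± 0.11, edgeR adjusted p = 0.528). None of these 3 passed under any of the 18 settings. In simulated counts with 4 against 4 libraries and 13191 genes in the fit, the test recovered 64% of 50 genes changed by 1.5-fold. At the smallest change simulated, which was below 1.5-fold, the test recovered 18% of 50 genes. The changed genes were drawn from genes of every level. The simulation gave 143 calls, against 3108 in the data, and fewer calls make the Benjamini-Hochberg cutoff stricter. These shares therefore need not hold for Gimap6, Gimap8 and Gimap9. Changes as small as those of these 3 members were not simulated.

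All 8 members lay above their title's mean in E1KO 3 and in E1WT 2, and all 8 lay below it in E1KO 1 and in E1WT 4, with median deviations of 0.108, 0.134, -0.12 and -0.115 on the log2 scale. Deviations of this size were usual, since the median absolute deviation over all genes was 0.123, 0.13, 0.13 and 0.136 in the same libraries. Gimap9, which has the shortest annotated exon length of the family at 1.642 kb, swung most, from -0.25 to 0.184 in E1KO and from -0.291 to 0.259 in E1WT. Libraries also differed in how each gene's deviation from its mean over the 8 libraries followed exon length. The Spearman correlation over 13258 genes, which are not independent replicates, was -0.32 in E1KO 3, -0.23 in E1KO 4 and -0.26 in E1WT 2, against 0.22 in E1KO 1 and 0.32 in E1WT 4, and lay between -0.011 and 0.09 in the other three. With this trend removed from each library, 4 members passed, where 27.5% of all genes did. Gimap7, Gimap1 and Gimap4 were higher, with log2 folds of 0.61 ± 0.06, 0.21 ± 0.04 and 0.15 ± 0.04 (edgeR adjusted p = 7.91e-06, 0.00308 and 0.0177), and Gimap3 was lower, at -0.16 ± 0.04 (edgeR adjusted p = 0.00782).

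**Figure D2:**
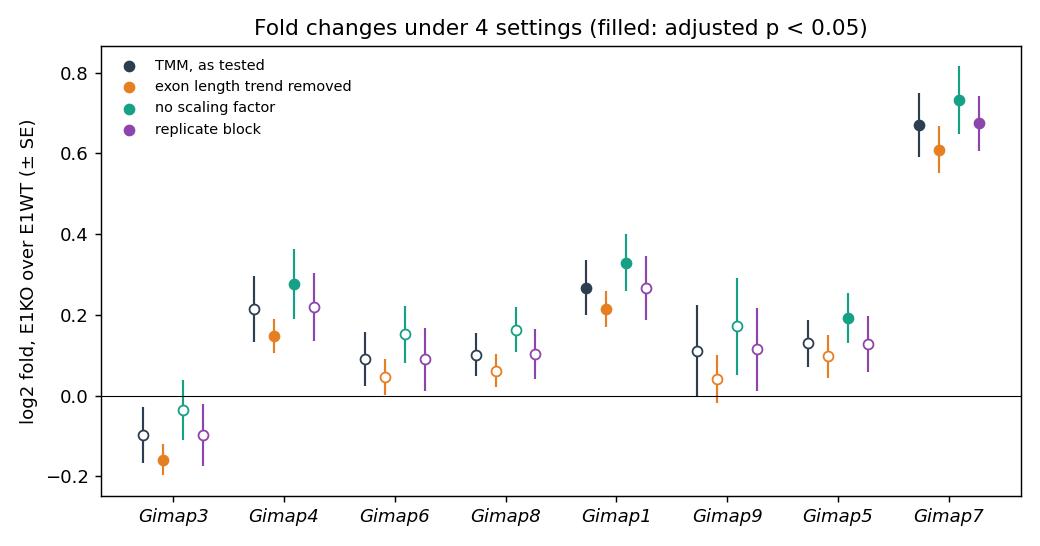
Log2 fold of each GIMAP gene, E1KO over E1WT, with its SE under 4 settings, where filled points have an adjusted p under 0.05. Gimap7 is filled in all 4, whereas Gimap3 is filled below 0 (log2 fold -0.16) with the exon length trend removed and open in the other settings.

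Proportions within the family were steadier than levels for Gimap3. Gimap3 took 28.9%, 29.5%, 29.5% and 29.3% of the family's counts in E1KO 1 to 4 and 33.7%, 33.2%, 33.3% and 33.5% in E1WT 1 to 4. These values do not depend on library scaling, and the groups lay apart by several times the SD (29.3 ± 0.293 against 33.4 ± 0.213%, n = 4 each). Gimap7 took 2.75% to 3.15% in E1KO and 1.89% to 2.02% in E1WT. Gimap1 took 9.26% to 10.19% against 8.57% to 8.89%, and Gimap4 took 22.4% to 23.0% against 20.0% to 21.8%. Shares of a fixed total are tied to each other, so that a lower share of Gimap3 and higher shares of other members are not separate results. The shares of Gimap5, Gimap6, Gimap8 and Gimap9 overlapped between the titles, with means of 2.41%, 17.3%, 13.0% and 2.56% in E1KO and 2.35%, 17.3%, 12.9% and 2.53% in E1WT.

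**Figure D3:**
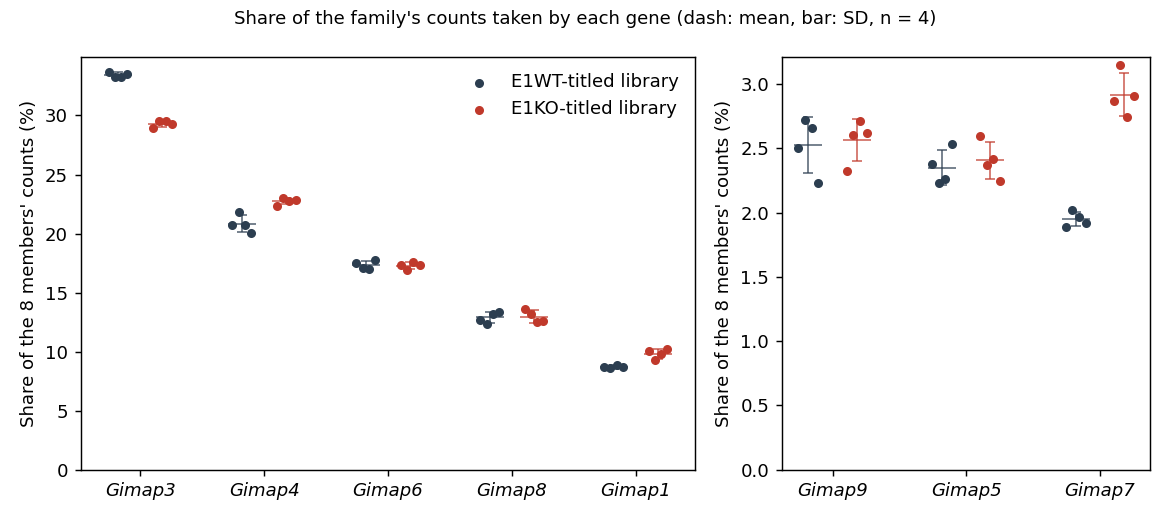
Share of the summed counts of the 8 GIMAP genes taken by each gene (%), with 1 point per library, a dash for the mean and a bar for the SD (n = 4 per title) and separate axes for the 5 larger and 3 smaller shares. Gimap3 falls between 28.9% and 29.5% in E1KO and between 33.2% and 33.7% in E1WT, and Gimap7 lies apart in the other direction.

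Ratios to Gimap3 come from the same counts as the folds and shares. The ratio of Gimap4 to Gimap3 was 0.773, 0.779, 0.772 and 0.780 in E1KO 1 to 4 and 0.615, 0.656, 0.624 and 0.598 in E1WT 1 to 4. These abundant members thus kept a nearly fixed proportion within E1KO. The ratio of Gimap7 to Gimap3 was 0.0996 ± 0.00556 in E1KO and 0.0583 ± 0.00202 in E1WT, or 1.71 times as high. Over all other tested genes, 25.3% had a ratio to Gimap3 that did not overlap between the titles. The same held for 6 of the 7 other members, with Gimap9 the exception. These 6 share Gimap3 as the divisor, so they are not separate results. Over all pairs of members, 15 of 28 ratios lay apart, and these pairs share members. Among Gimap5, Gimap6, Gimap8 and Gimap9, 0 of 6 pair ratios lay apart between the titles. That count largely follows from the choice of these members, whose shares overlapped and whose folds were alike. These ratios were looked at after the values were seen and are given with no test.

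Genes beside the cluster were examined within 0.5 Mb of either end. Of 23 symbols there, 15 were tested, 5 were higher and 1 lower in E1KO. The nearest gene on the Gimap8 side, AI854703, 13.5 kb away, had a log2 fold of -0.38 ± 0.17 (edgeR adjusted p = 0.134). Further along this side Repin1, a zinc finger gene 48.2 kb away, rose by 0.74 ± 0.15 on the log2 scale, Lrrc61 by 0.27 ± 0.07 and Zfp467 by 0.37 ± 0.09, and Krba1 fell by 0.25 ± 0.06 (edgeR adjusted p = 0.00428, 0.0125, 0.0126 and 0.00868). The calls of Lrrc61 and Krba1 ended with the exon length trend removed (edgeR adjusted p = 0.0699 and 0.392).

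The nearest tested genes on the Gimap3 side, Tmem176b and Tmem176a at 63.0 and 70.1 kb, had the largest called folds of the stretch. They encode membrane proteins known from dendritic cells and macrophages. They overlap each other at their starts, on opposite strands, so counts from the overlap can be mixed. Tmem176b stood at 13.9, 17.98, 18.9 and 17.1 CPM in E1KO 1 to 4 and at 7.80, 8.94, 9.06 and 6.46 CPM in E1WT 1 to 4. The log2 folds were 1.07 ± 0.13 for Tmem176b and 1.19 ± 0.12 for Tmem176a (edgeR adjusted p = 0.0002 and 6.38e-05). Summed monocyte and macrophage markers were 2.24 times and summed dendritic markers 1.251 times the E1WT level in the same libraries. Most of the dendritic sum was Bst2, at 40.6 ± 7.64 CPM in E1KO and 41.4 ± 5.67 CPM in E1WT, named after its values were seen. The median log2 fold of the dendritic markers was 0.883. The part of these cells in the rise of Tmem176b and Tmem176a was not tested. On chromosome 6 as a whole, 23.5% of 652 tested genes were called, 91 higher and 62 lower.

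**Figure D4:**
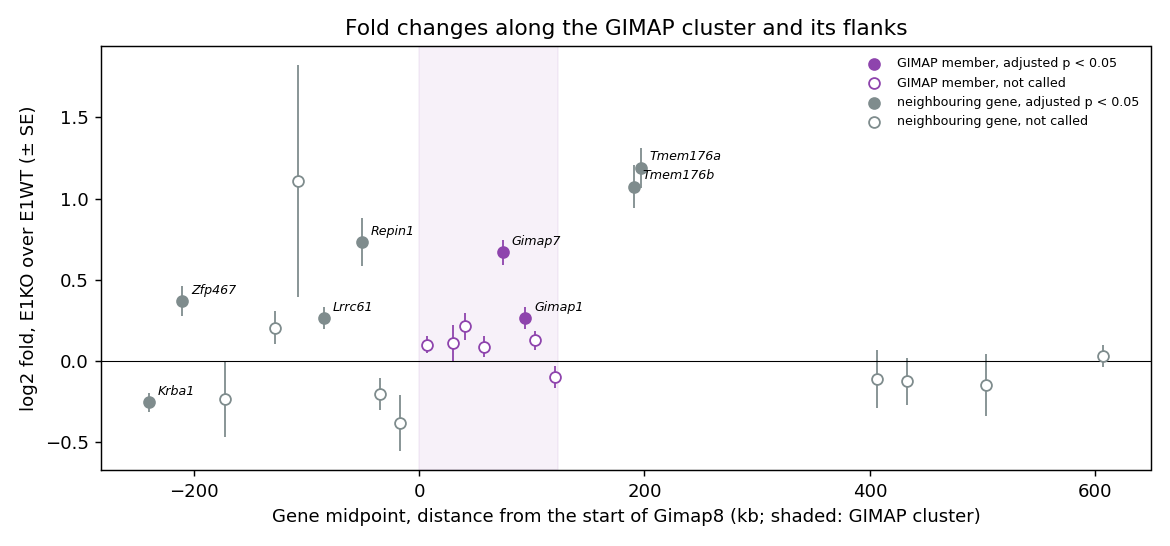
Log2 fold, E1KO over E1WT (± SE), against the distance of each gene's midpoint from the start of Gimap8 in kb, with the GIMAP cluster shaded and filled points for an adjusted p under 0.05. Gimap7 (0.67) and Gimap1 (0.27) are the filled members, and Tmem176a (1.19) and Tmem176b (1.07) stand highest among the filled neighbours.

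Lists of genes that work with or resemble GIMAP proteins were read from the same fit, beside 12.2% of all genes called higher and 11.1% lower. GIMAP proteins act in the survival of naive T cells alongside the BCL2 family, which controls the mitochondrial step of apoptosis. Of its 15 tested members 7 were higher and 0 lower, with a median log2 fold of 0.279. Bcl2l1, which encodes the survival factor BCL-XL, rose from 26.6 ± 1.29 to 37.1 ± 1.96 CPM (log2 fold 0.48 ± 0.07, edgeR adjusted p = 0.000499). The death-promoting BH3-only genes Bbc3, Pmaip1 and Bid rose too, by 1.12 ± 0.12, 0.62 ± 0.14 and 0.42 ± 0.09 on the log2 scale. The remaining higher genes were Bcl2, Bcl2l11 and Bak1, named after their values were seen. Their log2 folds were 0.39 ± 0.10, 0.25 ± 0.06 and 0.28 ± 0.06.

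Interleukin-7 is the main survival cytokine of naive T cells. Of 13 tested genes of its receptor and signalling 2 were higher and 0 lower (median log2 fold -0.0054). With the exon length trend removed 4 passed, 3 higher and 1 lower. The 2 higher genes were Cish, a feedback inhibitor induced by STAT5, which rose from 23.9 ± 2.75 to 43.9 ± 8.35 CPM (log2 fold 0.87 ± 0.13, edgeR adjusted p = 0.000613), and the transcriptional repressor Gfi1 (0.57 ± 0.10, edgeR adjusted p = 0.00225). The naive quiescence and homing list was split, with 2 of 15 higher and 4 lower (median log2 fold -0.146). Klf2, a transcription factor of T cell quiescence, rose by 0.31 ± 0.05, and the T cell transcription factors Tcf7 and Satb1 fell by 0.37 ± 0.05 and 0.42 ± 0.05 on the log2 scale. S1pr1 and Tsc1 were the other two that fell, by 0.15 ± 0.05 and 0.35 ± 0.08. S1pr1, named with Tsc1 after its value was seen, kept its call in 7 of the 18 settings.

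In the list of interferon-inducible IRG, GBP and MX GTPases, 1 of 19 tested members was higher and 4 were lower, with a median log2 fold of -0.0669. Iigp1 rose by 0.40 ± 0.06, whereas Gbp8, Irgm1 and Irgm2 fell by 0.45 ± 0.06, 0.22 ± 0.05 and 0.19 ± 0.05, and Gbp4, named after its value was seen, fell by 0.25 ± 0.07. Irgm2 kept its call in 16 and Gbp4 in 10 of the 18 settings, and with no scaling factor 1 gene of the list was higher and 2 were lower. Among the septins, the GTPases related in structure to GIMAP proteins, 1 of 11 was higher and 1 lower. Sept8 rose from 16.4 ± 0.92 to 33.2 ± 1.43 CPM (log2 fold 1.01 ± 0.07, edgeR adjusted p = 5.53e-06) and Sept6 fell by 0.24 ± 0.06.

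In the autophagy list, chosen for the partner of GIMAP6, 2 of 18 were higher and 1 lower. Gabarapl2, the gene of that partner, named after its value was seen, stood at 43.7 ± 7.49 CPM in E1KO and 43.0 ± 3.92 CPM in E1WT (log2 fold 0.02 ± 0.12, edgeR adjusted p = 0.915). Gabarapl1, which encodes another ATG8 protein, rose from 8.64 ± 0.52 to 16.2 ± 0.84 CPM (log2 fold 0.90 ± 0.09, edgeR adjusted p = 4.82e-05). Sqstm1, an autophagy receptor, had a log2 fold of 0.16 ± 0.05 and Becn1, an initiation factor, one of -0.21 ± 0.06 (edgeR adjusted p = 0.0377 and 0.0282). They kept their calls in 8 and 9 of the 18 settings. The list had 1 called gene without E1KO 2, E1KO 4, E1WT 1 or E1WT 3, and 5 higher and 0 lower with no scaling factor.

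The mean log2 CPM of the 8 members was 8.06, 8.17, 8.27 and 8.18 in E1KO 1 to 4 and 7.96, 8.14, 7.98 and 7.86 in E1WT 1 to 4. Of the 7519 other genes whose log2 CPM averaged 4 or more, those nearest to this profile over the 8 libraries were Icosl, Sharpin, Anp32b, H2-Eb1 and Dck, with Pearson correlations of 0.9996, 0.9894, 0.9865, 0.985 and 0.9848. They are the extremes of many genes over few libraries, and share with the family the libraries that stand high or low. Icosl followed the family closely, at 20.1, 22.7, 25.0 and 22.7 CPM in E1KO 1 to 4 and at 18.01, 21.8, 18.3 and 16.2 CPM in E1WT 1 to 4. Its log2 fold was 0.28 (edgeR adjusted p = 0.0744).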

How the data were processed

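The authors deposited unnormalized counts of reads per gene symbol for each library. The submitters' processing notes name TopHat2 2.1.0, HTSeq 0.9.1 and the mm10 build. No source used here gives the annotation, strand setting or filters. The 5 rows of reads given to no gene (28.2% to 37.0% of counts) were left out. Libraries were grouped by title. No pair of libraries with the same title agreed within sampling noise (chi-square per degree of freedom 4.1 to 60.1).

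All genes were fitted with edgeR 4.0.16 (R 4.3.3), by its quasi-likelihood test after TMM scaling and filterByExpr (minimum count 10, minimum total 15). P-values were adjusted by Benjamini-Hochberg over 13333 genes, with a threshold of 0.05. The SE of a log2 fold is its size over the root of F, and log2 CPM used a prior count of 2. The fit was tested on simulated counts, where 9.09% of 143 calls were unchanged genes. Members, lists and motifs were chosen with earlier results of these data known. Named genes are the members, called neighbours, Pcbp1, Xist with Ddx3y, up to 4 called genes per list by smallest p, and the 5 most alike profiles. A called list gene is not reported here. Positions and exon lengths are from GENCODE M21, where 23376 symbols matched by name, 678 through older symbols and 367 did not match. All 8 members matched a RefSeq promoter. Alternatives used DESeq2 1.42.0, limma 3.58.1, other scalings and filters, a replicate block, an exon length correction and libraries left out. Those with no scaling factor and with the longest transcript as length were added after the data were seen.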

Additional observations from a re-analysis of the deposited data

How the results depend on the processing

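Gimap7 was called under all 18 alternatives and Gimap1 under 15, and no member's fold changed sign. The number of members called, 2 with TMM scaling, was 1 to 3 with each library left out in turn, where leaving out E1KO 4 or E1WT 1 ended the call of Gimap1 and leaving out E1KO 1 or E1WT 2 added Gimap4. It was 4 with no scaling factor, where Gimap4 (log2 fold 0.28, edgeR adjusted p = 0.0381) and Gimap5 (0.19, 0.0416) were added. It was also 4 with the exon length trend removed, 3 higher and 1 lower. Without any scaling factor all genes split into 2257 higher and 1046 lower, against 1623 and 1485 with TMM. With the replicate number as a block 1 member was called, Gimap1 having an edgeR adjusted p of 0.0562, and all calls numbered 2156 against 3108. Same-numbered libraries did not deviate together (correlations -0.05, -0.14, 0.00059 and -0.28). Of 8 libraries, 0 matched its own number best, so no pairing by number was seen. The deviations also followed exon length, which could hide a weaker pairing, so pairing was not excluded. The counts of called neighbours and of all genes called stayed within 1.5 times under every setting run, with 4 to 6 neighbours and 2156 to 3724 genes. Dividing by the longest transcript moved the ratio of Gimap4 to Gimap3 per kb from 1.09 to 0.923 in E1KO and from 0.874 to 0.741 in E1WT.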

Other observations

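PCBP1 is known to bind C-rich RNA, and the C content of the members' transcripts was read from the longest annotated transcript of each gene. It ran from 18.1% in Gimap8 and 19.7% in Gimap9 to 24.2% in Gimap1 and 25.0% in Gimap3, against a median of 24.4% over tested genes with a transcript of the same name. Gimap8 lay at the 2.98th percentile and Gimap3 at the 56.0th. Runs of CCCC, counted with overlaps, were densest in Gimap3 at 9.32 per kb (88.6th percentile) and thinnest in Gimap7 at 1.58 per kb (11.8th percentile), against a median of 4.26 per kb. The other members held 4.99 (Gimap4), 4.34 (Gimap1), 4.09 (Gimap6), 3.87 (Gimap5), 2.17 (Gimap9) and 1.90 (Gimap8) runs per kb. Gimap3, the densest, had a log2 fold of -0.10, and Gimap7, the thinnest, had one of 0.67. Gimap4 and Gimap1, next in density to Gimap3, had log2 folds of 0.22 and 0.27. The sparse Gimap8 and Gimap9 had log2 folds of 0.10 and 0.11. Whether density bears on the folds was not tested. This is a description of 8 genes with no test, made after the folds were known.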
